A study of Ovis aries with 16 samples.

Results

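The miR-379 cluster is a run of miRNA genes in the imprinted DLK1-DIO3 domain, and its members were taken by name from the deposited tables of a sheep small RNA study. The rule holds 39 miRNA numbers with any letter suffix, plus the transcripts GTL2 and LOC105606646. It found 46 of the 105 miRNAs in the miRNA table and both long transcripts in the lncRNA table, so 48 of 3078 features in both tables. All 46 miRNAs were matched by symbol in RefSeq, assembly ARS-UI_Ramb_v3.0. There 45 of them lie inside LOC105606646, and MIR665 lies apart, between MIR493 and RTL1. MIR370 lies inside LOC105606646 but also apart from the run, near MIR136 and parted from MIR379 by snoRNA genes. The build of the deposited tables is not given in the sources used here, so only the order of the genes is used.

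Liver and muscle of 8 female sheep (Ovis aries) gave 16 small RNA libraries in 4 groups of 4. The control ewes were numbers 98, 131, 132 and 201, and those treated with testosterone in the womb (prenatal T) were numbers 48, 185, 233 and 255. Both tissues came from every ewe. The sources used here give neither breed, age, dose nor the days of exposure, and no muscle is named.

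In mammals the genes of this domain are expressed from 1 parental chromosome. DLK1, RTL1 and DIO3, which code for proteins, are expressed from the paternal copy, while GTL2 (called MEG3 in other species), a series of snoRNAs and the miRNAs come from the maternal copy. The miRNAs are thought to be cut from long primary transcripts that run through the cluster. In sheep the domain is known for the callipyge mutation, between DLK1 and GTL2. It enlarges the muscles of the hindquarters when it is inherited from the father and not from the mother. In mice, loss of the cluster impairs the switch of liver metabolism at birth.

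The values are normalised reads, scaled by the authors within each tissue and RNA class, and a mean of at least 5 over the 8 libraries of a tissue was required for a test. Of the 46 miRNAs, 25 passed in liver and 14 in muscle, and these 14 all passed in liver too. The other 21 passed in neither tissue. Reads were found in all 16 libraries for 17 members, and MIR376D had no read in any. MIR544 had none in liver, and 8 members had none in muscle. Over all miRNAs, 81 passed in liver and 64 in muscle. LOC105606646 passed in both tissues, and GTL2 passed in neither.

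Depth differed between tissues and libraries. Liver libraries held 206304 to 755344 miRNA reads, of which 1702 to 5425 were of the cluster, and muscle libraries held 113522 to 885316, of which 208 to 596 were. The muscle library of prenatal T ewe 255 was the shallowest, so that 1 miRNA read there equals 2.63 normalised reads, and it is the 1 muscle library whose library number in the labels belongs to the same run as most livers and not to that of the other 7 muscles. It also held less of MIR133, a miRNA of striated muscle, at 37.2% of its miRNA reads against 50.0% to 56.4% in the other 7 muscle libraries. MIR16B and MIR150, the 2 of 7 listed blood miRNAs in the table, summed to 1.01% there against 0.406% to 0.668% in the other muscles, and 4 endothelial and stromal miRNAs to 2.13% against 2.75% to 4.15%. The part of these in the results was not tested. The liver library of control ewe 98 held more MIR133 than the other 7 livers, at 0.227% of miRNA reads against 0.0290% to 0.0639%. MIR194 and MIR148A, which are abundant in liver, summed to between 9.97% and 14.6% of miRNA reads in liver and to between 0.186% and 0.351% in muscle, so the tissues matched their labels by these markers.

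Along the chromosome the reads were concentrated in a few stretches. The 15 members from MIR379 to MIR3958 held 67.1% of the cluster's reads summed over all liver libraries and 56.96% in muscle. The 8 neighbours from MIR376E to MIR3956, among them the MIR376 genes, whose seed is known to be changed by A-to-I editing in other mammals, held 55 reads over all livers and 12 over all muscles. That was 0.251% and 0.394% of the cluster's reads, and none of the 8 passed the filter in either tissue. Beyond them, the 13 members from MIR381 to MIR154B held 12.2% in liver and 22.6% in muscle, and the 8 from MIR496 to MIR323C held 15.6% and 12.1%. MIR665 and MIR370, which lie before MIR379, are in none of these stretches. MIR370 held 1059 of the cluster's 21947 reads in liver and 235 of 3046 in muscle. The borders of the stretches were set after the values had been seen.

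**Figure D1:**
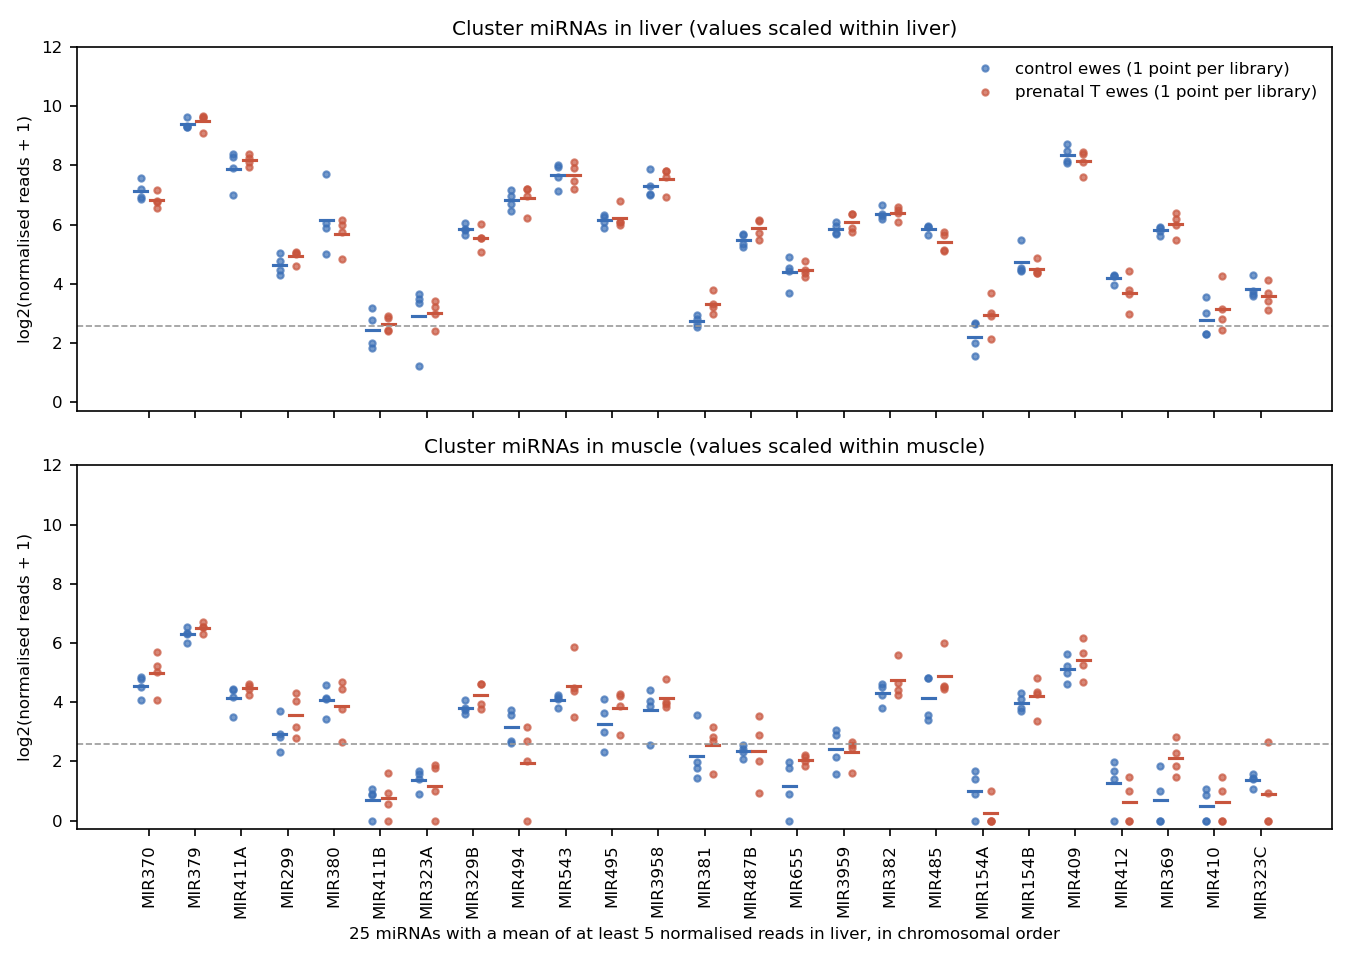
Normalised reads of the 25 cluster miRNAs that passed the filter in liver, as log2(value + 1), in chromosomal order, for liver (top) and muscle (bottom). Points are libraries, short bars are means of 4, and the dashed line marks a value of 5; MIR379 is highest in both tissues, and 14 of the 25 have a mean above 5 normalised reads in muscle.

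MIR379, which gives the cluster its name and has been studied in the mouse liver as a regulator of lipoprotein secretion, led in every library. In control livers it was at 633, 627, 798 and 643 normalised reads (ewes 98, 131, 132 and 201), and in prenatal T livers at 795, 552, 780 and 816 (ewes 48, 185, 233 and 255). Ewe 185 was lowest of the 8 and the groups overlapped. In muscle it was at 78.8, 91.2, 62.8 and 79.9 in control ewes and at 77.5, 91.0, 93.0 and 103 in prenatal T ewes, again overlapping. It made up 26.3% ± 0.846 of the cluster's reads in control liver, 28.2% ± 1.10 in prenatal T liver, 24.7% ± 3.11 in control muscle and 22.5% ± 3.197 in prenatal T muscle (SD, n = 4 each). Mature miRNAs are of nearly one length, so shares of reads were compared between members without a length correction.

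MIR409, from the far end of the cluster, was the next most abundant by mean in both tissues. Its control livers were at 354, 270, 421 and 284 normalised reads and its prenatal T livers at 279, 193, 334 and 352. Its control muscles were at 23.7, 48.9, 31.0 and 36.7 and its prenatal T muscles at 24.5, 36.9, 50.1 and 71.0. In both tissues the groups overlapped, and the highest muscle was that of ewe 255.

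MIR411A, which lies next to MIR379, ranked next in liver and further down in muscle. Control livers were at 128, 310, 331 and 239 normalised reads, with ewe 98 lowest, and prenatal T livers at 330, 246, 301 and 277. Its share of the cluster's reads was 9.81% ± 3.41 in livers of control ewes and 5.41% ± 1.64 in their muscles (SD, n = 4 each), with the liver of ewe 98, at 5.06%, inside the range of the muscles (3.81% to 7.61%). Muscle values were 20.7, 17.1, 10.3 and 20.51 in control ewes and 18.1, 20.7, 22.5 and 23.7 in prenatal T ewes.

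MIR543, MIR3958 and MIR370 followed in liver. MIR543 was at 141, 196, 255 and 244 normalised reads in control livers and at 146, 177, 240 and 275 in prenatal T livers. MIR3958 was at 129, 127, 234 and 156 in control and 221, 120, 193 and 225 in prenatal T livers. The ranges of the groups overlapped for both. MIR370, reported in mice and human cells to act on fatty acid oxidation in the liver, was at 187, 122, 147 and 116.8 in control livers, with ewe 98 highest, and at 109, 93.8, 110 and 142 in prenatal T livers.

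The order in muscle was different below the first places. MIR370, MIR485 and MIR382 came next after MIR379 and MIR409 by mean, although they had been sixth or lower in liver. MIR485 made up 2.24% ± 0.249 of the cluster's reads in livers of control ewes and 5.53% ± 2.08 in their muscles, and 1.62% ± 0.255 and 7.40% ± 2.97 in prenatal T liver and muscle (SD, n = 4 each). The highest liver share was 2.53% and the lowest muscle share 3.49%, so the tissues did not overlap. MIR154B showed the same order, at 1.06% ± 0.462 in control liver against 4.84% ± 1.56 in control muscle, and the highest of its 8 livers (1.74%, ewe 98) lay below the lowest of its 8 muscles (3.19%). MIR382 also had a higher share in all 8 muscles (4.76% to 8.65%) than in any liver (2.53% to 4.24%).

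**Figure D2:**
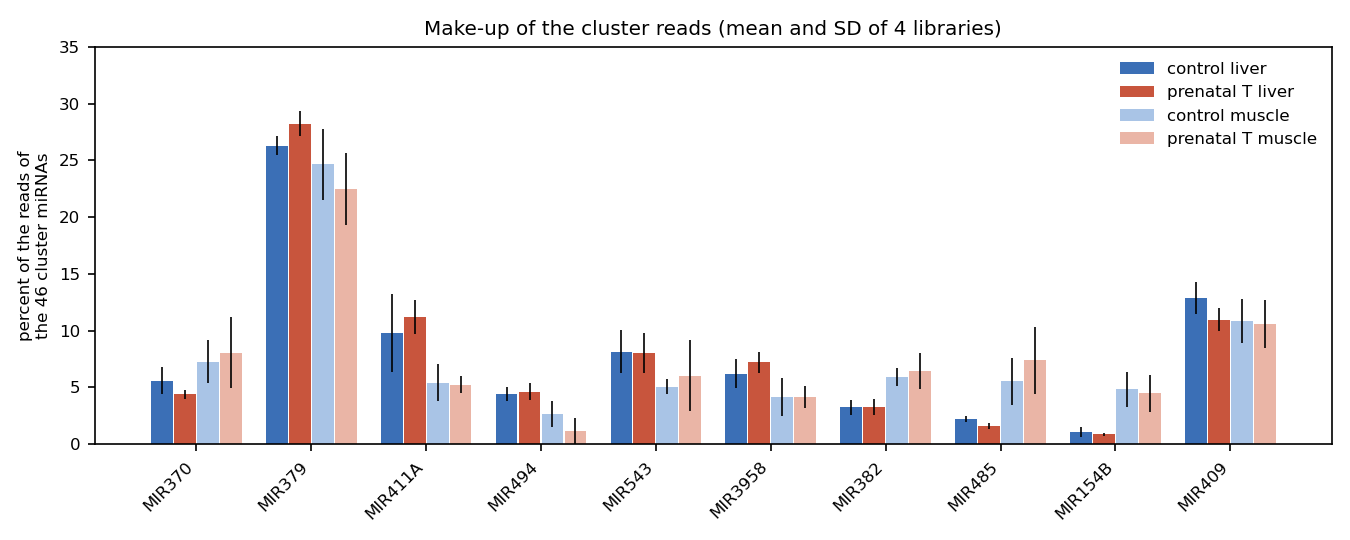
Share of the reads of all 46 cluster miRNAs held by the 10 members that were among the 8 highest by mean in liver or in muscle, as mean and SD of 4 libraries per group. MIR379 holds over 20% in each group, and MIR382, MIR485 and MIR154B hold a larger share in both muscle groups than in both liver groups.

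Cluster miRNAs made up less than 1% of miRNA reads in every library. In liver they made up 0.703%, 0.597%, 0.762% and 0.5996% in control ewes and 0.718%, 0.466%, 0.825% and 0.841% in prenatal T ewes. In muscle they made up 0.0620%, 0.0951%, 0.0659% and 0.0857% in control ewes and 0.0673%, 0.0990%, 0.0955% and 0.183% in prenatal T ewes. The tissues did not overlap, while the treatment groups overlapped in both. With MIR133 left out of the muscle totals, the muscle shares were 0.132% to 0.292% and still lay below every liver. For ewe 255 in muscle the 95% Wilson interval, which covers counting error only, ran from 0.160% to 0.210%, above the shares of the other 7 muscles.

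**Figure D3:**
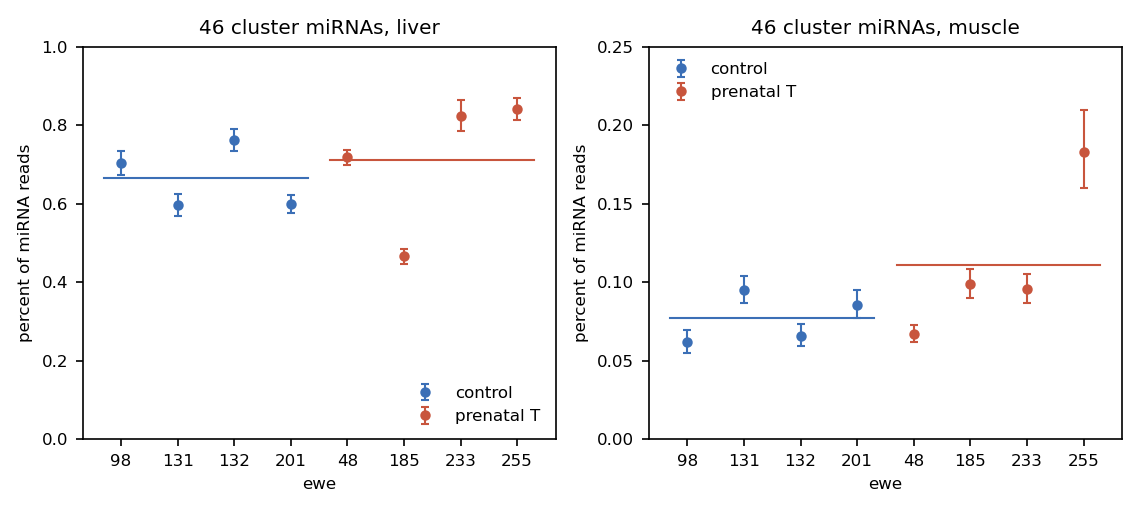
Share of miRNA reads that fell on the 46 cluster miRNAs in each library, by ewe, for liver (left) and muscle (right, with a smaller scale). Points carry 95% Wilson intervals for counting error and lines are group means; control and prenatal T ewes overlap in both tissues, and the muscle of ewe 255 is the highest muscle at 0.183%.

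For control ewes, the comparison of liver with muscle used reads scaled jointly over their 8 libraries, since the deposited values of the tissues have separate scales. Of the 21 cluster miRNAs that passed the filter in this comparison, 16 were higher in liver and 0 lower (limma, Benjamini-Hochberg adjusted p under 0.05 over the whole table). Among all 76 miRNAs tested, 42.1% were higher in liver and 34.2% lower. The median log2 difference of the members was 1.72, against 0.13 for all miRNAs tested. A member that passed only through its liver values had to differ, so the 14 members with a mean of at least 5 in each tissue were also counted, and 10 of them were higher in liver, with a median of 1.41. A list of 7 endothelial and stromal miRNAs, of which 4 are in the table, summed to between 8.47% and 12.9% of miRNA reads in control liver and between 2.82% and 4.15% in control muscle, while the 2 blood miRNAs summed to 0.579% to 0.738% and 0.517% to 0.668%. The part of cell makeup in the difference was not tested, and in whole tissue fewer cells of a type and less RNA per cell cannot be told apart.

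MIR369, which lies near the far end of the cluster and whose 3p arm has been studied for its action on AU-rich elements in human cells, had the largest difference by value. Its mean in muscle was under 5 normalised reads by the deposited values, as for the called members MIR3959, MIR655, MIR412, MIR487B and MIR323C. Most reads of these 6 came from the livers, so their test is not taken as separate evidence. MIR369 had 36, 42, 58 and 61 reads in the control livers of ewes 98, 131, 132 and 201 and 1, 0, 3 and 0 reads in their muscles. On the joint scale this was 32.7 ± 4.60 against 1.41 ± 1.95 scaled reads (SD, n = 4 each), a log2 difference of 4.14 (SE 0.52, adjusted p = 1.72e-05). With so few muscle reads the size of the difference depends on the pseudocount of 1. In prenatal T ewes MIR369 was at 44.9 ± 12.5 against 5.68 ± 2.80, a log2 difference of 2.83 (SE 0.42, adjusted p = 3.85e-05).

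MIR411A, MIR494 and MIR543, with a mean of at least 5 in each tissue, had the next largest differences. MIR411A was at 150 ± 55.5 jointly scaled reads in the livers of control ewes and 26.4 ± 6.99 in their muscles, 2.41 higher on the log2 scale (SE 0.33, adjusted p = 3.88e-05). MIR494, reported to act on mitochondrial biogenesis in mouse muscle cells, was at 69.4, 61.98, 82.1 and 55.0 in control livers and at 16.6, 18.9, 8.25 and 8.14 in control muscles, 2.36 higher in liver (SE 0.31, adjusted p = 2.56e-05). MIR543 was at 124.5 ± 34.6 against 24.9 ± 3.58, 2.24 higher (SE 0.25, adjusted p = 7.92e-06). In none of the 3 did a control muscle reach a control liver. For each of the 16 called members every control liver lay above every control muscle, as for 40.8% of all 76 miRNAs in this direction.

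MIR379 itself was 1.72 higher in control liver on the log2 scale (SE 0.17, adjusted p = 3.41e-06), at 399 ± 45.1 against 121 ± 16.6 jointly scaled reads. MIR409 was 1.86 higher, MIR370 1.24, MIR329B 0.71 and MIR382 0.72, and these also passed the test. The remaining called members were MIR3958, MIR3959, MIR655, MIR412, MIR487B, MIR495 and MIR323C, with log2 differences between 1.36 and 2.23.

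The other 5 members did not pass the test in control ewes. Of these, MIR299 and MIR380 are neighbours. Between MIR485 and MIR154B the only member is MIR154A, which was below the filter of this comparison. MIR485 was at 33.2, 29.8, 34.1 and 38.3 jointly scaled reads in liver and at 16.6, 41.5, 15.1 and 40.7 in muscle, so the muscles fell on both sides of the livers (log2 difference 0.38, SE 0.35, adjusted p = 0.326). MIR154B was at 24.4, 13.3, 12.1 and 13.0 in liver and at 19.6, 25.2, 30.3 and 17.9 in muscle (log2 difference -0.56, SE 0.30, adjusted p = 0.107). Without ewe 98, whose liver was the highest of the 4, MIR154B was called lower in liver (log2 difference -0.85, adjusted p = 0.0187), and the number of members called higher was again 16. MIR381 (-0.57), MIR299 (0.43) and MIR380 (0.76) also did not pass.

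In prenatal T ewes 12 of 20 members tested were higher in liver and 0 lower, beside 36.0% higher and 26.7% lower (62.7% called in all) among all 75 miRNAs tested. The members' median log2 difference was 1.42, against 0.20 for all, and for 11 members every liver lay above every muscle, as for 34.7% of all miRNAs tested. Of the 14 members with a mean of at least 5 in each tissue, 7 were higher, with a median of 0.95. MIR494 had the largest difference, at 101, 47.5, 85.7 and 101 jointly scaled reads in the livers of ewes 48, 185, 233 and 255 and at 12.7, 9.10, 4.67 and 0 in their muscles (log2 difference 3.94, SE 0.67, adjusted p = 0.000108, and 3.03 without ewe 255, with 12 members again called). MIR485 was at 28.8 ± 7.35 in liver and 50.3 ± 30.9 in muscle and did not pass (log2 difference -0.66, SE 0.39, adjusted p = 0.147). MIR154B was at 14.9 ± 2.91 and 29.6 ± 12.5 and did not pass either (log2 difference -0.86, SE 0.40, adjusted p = 0.0676). It was called lower in liver with edgeR (adjusted p = 0.0255), DESeq2 (0.0338) or a pseudocount of 5 (0.0444), and without ewe 48 (0.0326). MIR370, MIR382 and MIR329B, called in control ewes, did not pass here, with log2 differences of 0.62, 0.47 and 0.14.

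The size of these differences depends on how the tissues are scaled. In control ewes the median of all miRNAs tested was 0.13 with the joint scaling, 1.52 with the deposited values, 1.63 when scaled to the miRNA reads of a library and 2.33 when scaled to its reads of all 4 RNA classes. The calls over all miRNAs were 32 higher and 26 lower in liver with the joint scaling, and 56 and 4 with the deposited values. Relative to the median of all miRNAs, the members' median lay 1.59 higher in control ewes with the joint scaling and between 1.42 and 1.59 higher under the 6 other scalings and tools. MIR381 and MIR154B lay below that median in control ewes under all 7, and the other 19 members above it. In prenatal T ewes the members' median lay 1.22 higher with the joint scaling and between 1.20 and 1.34 higher under the others. There 4 or 5 of the 20 members lay below the median of all. A scaling factor shifts all miRNAs of a library nearly alike. These relative positions could therefore hardly change, and they are no check of the scaling. The sign of MIR381 and MIR154B turned positive with the deposited values and with both scalings to library totals.

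**Figure D4:**
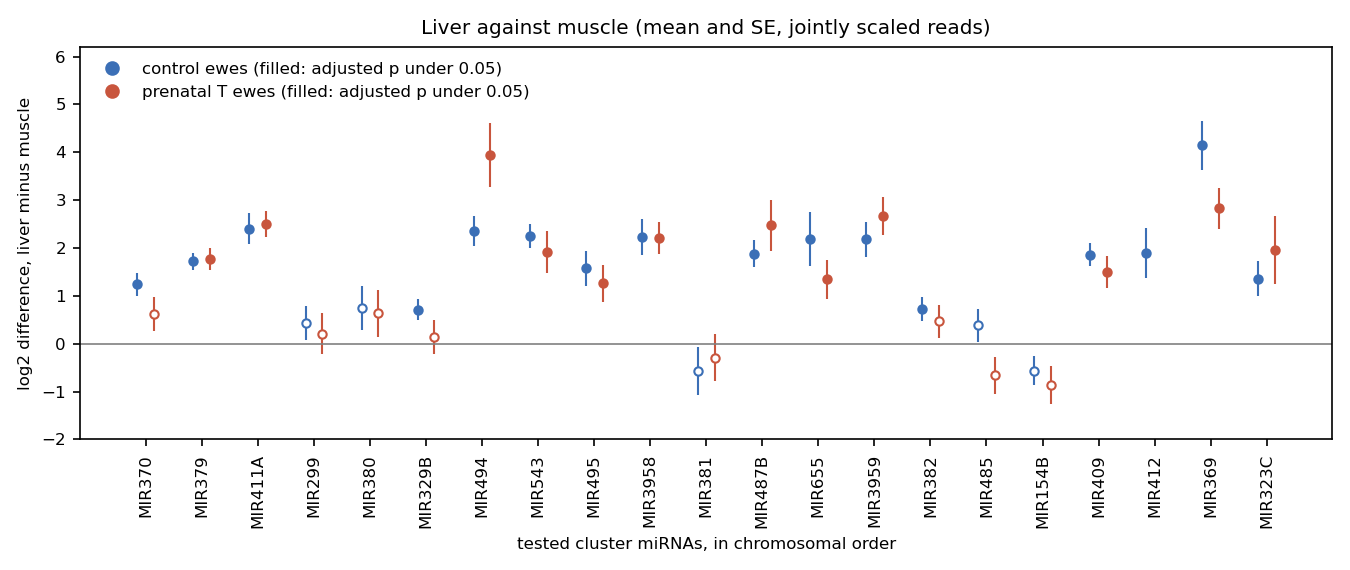
Log2 difference between liver and muscle of each tested cluster miRNA, in chromosomal order, with SE, in control ewes (blue) and prenatal T ewes (red). Filled points passed the test; MIR369 (4.14) leads in control ewes and MIR494 (3.94) in prenatal T ewes, while MIR381 and MIR154B lie below 0 in both.

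Other miRNAs of the domain were taken from a list of 12 names, of which MIR665 is a member and 7 more are in the table. Of these, 5 could be tested between tissues (MIR493, MIR433, MIR127, MIR432 and MIR136), and 2 were higher in liver of control ewes: MIR136 with a log2 difference of 1.87 and MIR493 with 0.55. In prenatal T ewes 1 of 5 was higher, MIR136. Among all miRNAs tested 42.1% of 76 were higher in liver in control ewes and 36.0% of 75 in prenatal T ewes. By the deposited values the mean of MIR136 in muscle was under 5, at 2.12 (control) and 1.94 (prenatal T). Its liver means were 15.1 and 13.9. The calls of MIR136 are therefore not taken as separate evidence, as for the cluster members with so few muscle reads. The median log2 difference of the 5 was 0.22 in control ewes and 0.00 in prenatal T ewes. Between treatments 0 of 5 were called in liver and 0 of 4 in muscle, where MIR433 had the largest log2 fold change (0.97, adjusted p = 0.559). Its unadjusted limma p was 0.044, and each prenatal T muscle lay above each control, as for 1.56% of the 64 miRNAs tested. By value all 4 were higher in prenatal T muscle, with a median of 0.23. For all 4 the effect was also larger in muscle than in liver, with a median difference of 0.32.

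Prenatal T and control livers did not differ in any cluster miRNA at the threshold. Of 25 tested, 0 were called by limma and 0 had an unadjusted p under 0.05 (edgeR's quasi-likelihood test called 0 and gave 2 at an unadjusted p under 0.05, MIR381 and MIR154A, and DESeq2 called 0 and gave 0). The share called among all 81 miRNAs was 0.0%. Values were higher in prenatal T for 16 members and lower for 9, beside 42 and 39 of all 81 miRNAs. The members' median log2 fold change was 0.08, against 0.01 for all miRNAs. The largest fold change in either direction was 0.73. Within the 6 livers of the larger run of library numbers, which leaves out ewes 98 and 48, the median was 0.04 with 14 higher and 11 lower.

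MIR381 had the smallest p in liver. It was at 6.65, 5.19, 6.06 and 4.87 normalised reads in control livers and at 12.8, 6.82, 8.23 and 8.88 in prenatal T livers, so no prenatal T liver was below a control (log2 fold change 0.58, SE 0.28, adjusted p = 0.959). It was the 1 member, and the 1 miRNA of the table (1.23% of 81), whose groups did not overlap upwards. These values rest on 4 to 26 reads per library.

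MIR154A, MIR485, MIR412 and MIR487B followed. MIR154A was at 5.32, 5.19, 3.03 and 1.95 normalised reads in control and 11.8, 3.41, 6.58 and 7.10 in prenatal T livers (log2 fold change 0.73, SE 0.37). MIR485 was at 59.8, 49.4, 59.6 and 60.3 in control livers and at 33.9, 33.3, 52.7 and 49.7 in prenatal T livers (log2 fold change -0.45, SE 0.25). Ewes 48 and 185 were below all controls, and ewes 233 and 255 were above control ewe 131 alone. MIR412 was at 18.6, 18.2, 18.2 and 14.6 in control and 12.8, 6.82, 11.5 and 20.4 in prenatal T livers (log2 fold change -0.49, SE 0.31). MIR487B was at 49.2, 50.6, 39.4 and 37.0 in control and 52.1, 43.5, 69.1 and 71.0 in prenatal T livers (log2 fold change 0.40, SE 0.25). All 4 had an adjusted p of 0.959, and their groups overlapped. Single libraries moved some of these values: MIR154A was at 0.48 without ewe 48, and MIR412 at -0.24 without ewe 185.

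Livers of the same group differed from each other across many members at once. The liver of ewe 185 was the lowest of the 4 prenatal T livers for 20 of the 25 members, and that of ewe 255 was the highest for 12. Among control livers, ewe 98 was highest for 11 members and lowest for 6. For MIR380 its value was 210 normalised reads against 64.9, 57.6 and 31.1 in the other control livers, and for MIR154B 43.9 against 22.1, 21.2 and 20.4. Without ewe 98 the fold changes of MIR380, MIR154B and MIR411A in liver were 0.04, 0.03 and -0.02, where they had been -0.48, -0.22 and 0.28 with it. The median coefficient of variation over the tested members was 22.5% in control liver and 25.6% in prenatal T liver. Without ewe 185 the median log2 fold change in liver was 0.25, and without ewe 255 it was -0.03.

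Muscle gave 14 tested members, and again 0 were called by limma (0.0% of all 64 miRNAs were), 0 by edgeR and 0 by DESeq2. None had an unadjusted p under 0.05 by any of the 3. The values were higher in prenatal T for 12 members and lower for 2, beside 27 and 37 of all 64 miRNAs. The members' median log2 fold change was 0.42, against -0.05 for all 64. The members were measured in the same 8 libraries, so their directions are not separate observations. The muscle of ewe 255 was the highest of the 4 prenatal T muscles for 9 of 14 members and that of ewe 48 the lowest for 10. Without ewe 255, which leaves the 7 muscles of one run of library numbers, the members' median was 0.21, with 13 higher and 1 lower, and that of all miRNAs 0.00. Without control ewe 98 the members' median was 0.26.

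MIR494 was lower in prenatal T muscle by value. It had 11, 15, 6 and 5 reads in control muscles and 16, 6, 3 and 0 in prenatal T muscles, or 10.8, 12.2, 5.16 and 5.40 against 7.85, 5.40, 3.06 and 0 normalised reads. The ranges overlapped, and the log2 fold change of -1.19 (SE 0.63, adjusted p = 0.651) was -0.53 without ewe 255, where 1 read would have counted as 2.63.

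MIR485 was at 10.8, 26.9, 9.47 and 27.0 normalised reads in control muscles and at 22.1, 20.7, 22.5 and 63.1 in prenatal T muscles. The controls formed a low and a high pair around the prenatal T ewes 48, 185 and 233, and only ewe 255 was above all controls. The log2 fold change was 0.74 (SE 0.45, adjusted p = 0.778), and 0.37 without ewe 255.

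MIR299 and MIR329B had similar p-values in muscle. MIR299 was at 3.94, 6.52, 6.03 and 11.9 normalised reads in control and 5.88, 18.9, 15.3 and 7.89 in prenatal T muscles (log2 fold change 0.64, SE 0.47). MIR329B was at 15.8, 12.2, 11.2 and 13.0 in control and 12.7, 23.4, 14.3 and 23.7 in prenatal T muscles (log2 fold change 0.44, SE 0.35). Without ewe 185 MIR299 was at 0.39. Ewes 185 and 233 were the highest for MIR299, and 185 and 255 for MIR329B.

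MIR370 was at 15.8, 27.7, 26.7 and 21.6 normalised reads in control muscles and at 15.7, 36.0, 51.1 and 31.6 in prenatal T muscles, where ewe 48 lay at the level of the lowest control and the other 3 above all controls. Its log2 fold change was 0.45 (SE 0.37, adjusted p = 0.778) and 0.44 without ewe 255, but it ran from 0.22 without ewe 233 to 0.76 without ewe 48. MIR543, MIR382 and MIR3958 had log2 fold changes of 0.48, 0.44 and 0.41, with the highest muscle value of each in ewe 255 (57.9, 47.3 and 26.3 normalised reads). Without ewe 255 the fold changes were 0.04, 0.15 and 0.20, and without control ewe 98 that of MIR3958 was 0.03.

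**Figure D5:**
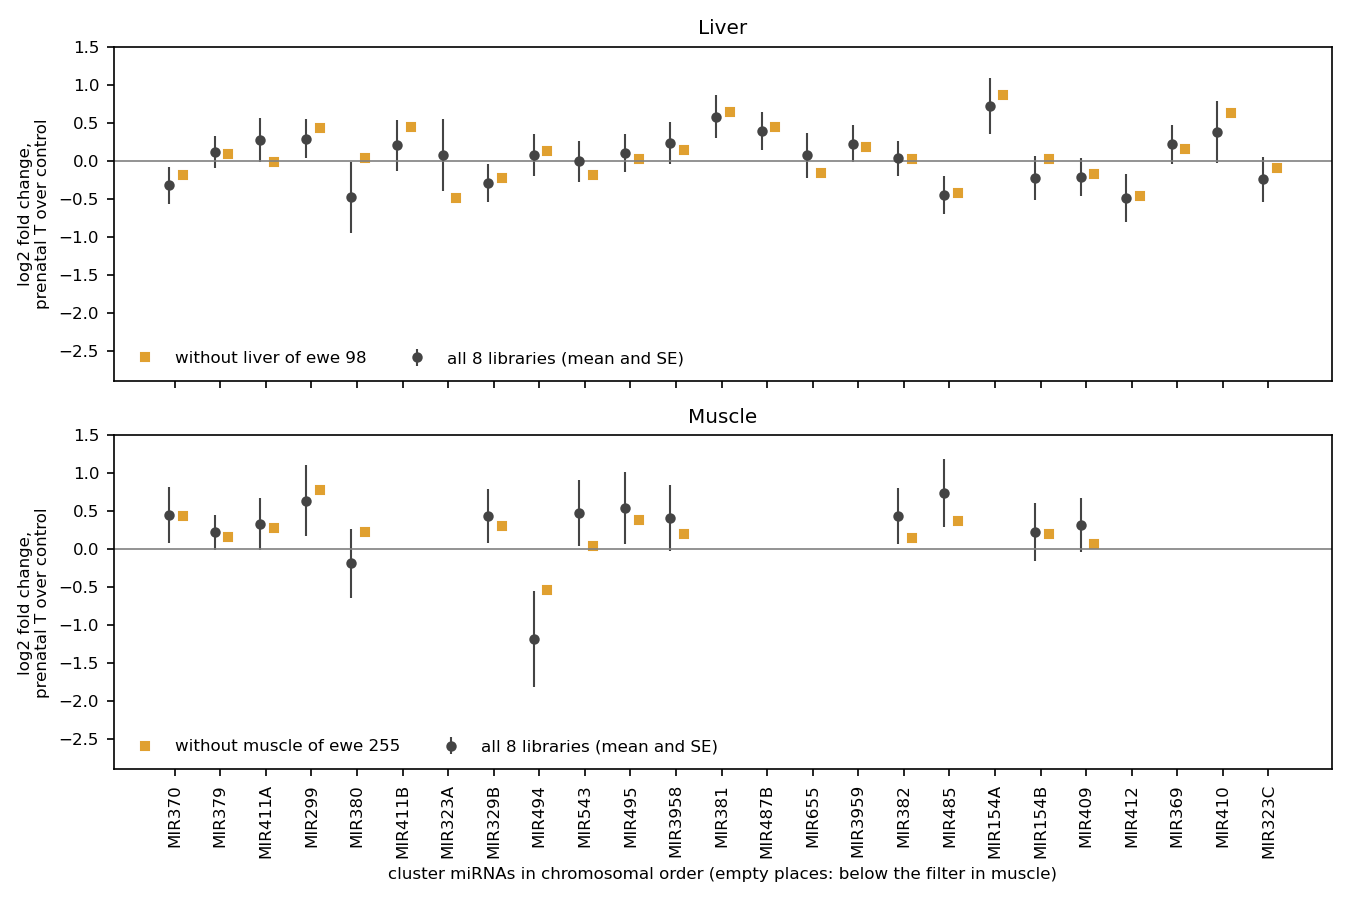
Log2 fold change of prenatal T over control for the cluster miRNAs that passed the filter in liver (top, 25) and muscle (bottom, 14), with SE (black), and the value without the liver of ewe 98 or the muscle of ewe 255 (orange squares). None passed the test in either tissue. In muscle 12 of 14 lie above 0, beside 27 of all 64 miRNAs tested, and MIR494 moves from -1.19 to -0.53 without ewe 255.

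Whether prenatal T effects differed between muscle and liver was tested over all 16 libraries for the 14 members with a mean of at least 5 in each tissue. None was called, nor was any of the 64 miRNAs tested (0.0%), and 1 member, MIR485, had an unadjusted p under 0.05 (edgeR called 0 and also gave MIR485 alone). The effect was larger in muscle for 13 members by value, beside 32 of all 64 miRNAs. The members' median difference in log2 fold change was 0.43, against -0.01 for all. MIR485, lower in liver and higher in muscle by value, had the largest positive difference at 1.19 (SE 0.53, adjusted p = 0.733), and MIR494 the 1 negative one at -1.26 (SE 0.68, adjusted p = 0.733). MIR370 followed with 0.77, MIR329B with 0.73 and MIR409 with 0.53. Without ewe 255 MIR494 was at -0.51 and MIR485 at 0.90, and the median was 0.39 with 12 members positive. Without ewe 98 the median was 0.27 with 11 positive, and MIR370 was at 0.48 and MIR409 at 0.32.

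LOC105606646, the transcript that spans the cluster in the reference, is listed among the lncRNAs by the authors and as protein-coding in the reference. Its livers were at 255, 220, 293 and 205 normalised reads in control ewes and at 238, 176, 280 and 343 in prenatal T ewes, with ewe 185 lowest and ewe 255 highest of all 8 (log2 fold change 0.06, SE 0.27, adjusted p = 0.903; 0.0% of the 121 lncRNAs tested were called). Its muscles were at 71.5, 82.7, 78.1 and 92.8 in control ewes and at 52.0, 98.0, 117.4 and 176 in prenatal T ewes. There ewe 48 was below all controls and the other 3 above them (log2 fold change 0.32, SE 0.35, adjusted p = 0.853, and 0.06 without ewe 255). Of all lncRNAs tested in muscle 3.51% were called, all lower. For 0.877% of them every prenatal T muscle lay above every control, and for 4.39% below.

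Between tissues LOC105606646 was higher in liver. In control ewes it was at 226 ± 32.6 jointly scaled reads in liver and 89.1 ± 12.8 in muscle, a log2 difference of 1.33 (SE 0.26, adjusted p = 0.00128, where 31.0% of 126 lncRNAs were higher in liver and 30.2% lower). In prenatal T ewes it was at 234.8 ± 57.995 and 112.2 ± 46.03, a log2 difference of 1.14 (SE 0.40, adjusted p = 0.0328, where 28.4% of the lncRNAs tested were higher, 22.4% lower and 50.9% called in all). That second call was lost with ewe 48, 185 or 233 left out (adjusted p up to 0.105) and with edgeR (adjusted p = 0.05003).

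The transcript and the summed reads of the 46 miRNAs did not differ by the same amount between tissues. For each read of the 46 miRNAs there were 0.0693 to 0.146 reads of LOC105606646 in the 8 livers and 0.196 to 0.346 in the 8 muscles, without overlap. This holds for the sum, and single members lay on both sides of the transcript. LOC105606646 had 2083 reads over the livers and 746 over the muscles, beside 518 and 21 for MIR369 and 195 and 141 for MIR154B. Whether reads of the miRNAs were also counted for the transcript cannot be seen in the tables.

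GTL2, the long RNA at the start of the maternally expressed series, was close to the detection limit of these small RNA libraries. It had 9 reads over the 8 livers and 15 over the 8 muscles, with at most 5 in any library, and was not tested. The snoRNAs of the same interval, of which 33 are in the snoRNA table, had 13 to 86 reads per library in all.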

How the data were processed

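Small RNA of liver and muscle of 8 ewes was deposited as tables of 4 RNA classes. Among the tools named in the submitters' processing notes are featureCounts 1.6.1, STAR 2.6.0c and cutadapt 3.2, without a genome build. What the authors deposited is a normalised signal: each library's reads were divided by 1 factor within a class and tissue. Every value was a whole number of such steps within 0.001 reads (100%), which gave the reads and depths. Arms of a miRNA are not separated, and reads of near-identical members (MIR411A and MIR411B, MIR329A and MIR329B, MIR154A and MIR154B, MIR487A and MIR487B, MIR323A and MIR323C, the MIR376 genes) may have been shared between them, so their values are uncertain.

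Groups were compared with limma 3.58.1 in R 4.3.3 on log2(value + 1), which understates changes of low features, for features with a mean of at least 5. P-values were adjusted by Benjamini-Hochberg over the whole table, with a threshold of 0.05. Tissues were compared on recovered reads scaled by median-of-ratios factors over the 8 libraries of 1 treatment. Alternatives were edgeR 4.0.16, DESeq2 1.42.0, other pseudocounts (0.5 and 5), filters (none, or a mean of 20), scalings, the library numbers as a covariate, ewe as a block and each library left out. Only the limma comparisons of prenatal T with control and of liver with muscle were also run on simulated reads. The outcome is not given here, and the difference of effects, edgeR, DESeq2 and the block were not simulated.

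Liver and muscle of a ewe come from the same animal, per the labels' sheep numbers. Deviations from the group means over the miRNAs correlated between -0.17 and 0.44 for the 8 same-ewe pairs (median -0.07) and between -0.55 and 0.43 for 24 pairs of different ewes (median -0.01). P-values measure the spread between the 4 ewes of a group.

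Values per library are given for the 8 highest members in each tissue, the 5 of smallest p in each prenatal T comparison, the 4 of largest called tissue difference and both long transcripts; other members are named where they fell outside these. The members and lists were chosen with earlier results of these data known. Grouping by seed was not done, since mature sequences were not used here.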

Additional observations from a re-analysis of the deposited data

Results flagged for a closer look

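In all, 90 groups of 4 libraries were examined for a single library far from its other 3, and 11 were found. They covered each member that passed the filter in a tissue and LOC105606646. The cluster's share of miRNA reads and the LOC105606646 reads per cluster read were examined too. Chance gives about 1 in 20 for separate groups, but these groups reuse the same 16 libraries. No cause was tested for any of them.

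In liver, MIR379 was at 798 normalised reads in control ewe 132, where the other controls were at 627 to 643, and at 552 in prenatal T ewe 185, where the others were at 780 to 816. MIR299 was also low in ewe 185, at 23.0 against 31.3 to 33.0. MIR495 was at 111 in prenatal T ewe 255 against 61.97 to 67.5. MIR485 was at 49.4 in control ewe 131 against 59.6 to 60.3, and MIR412 at 14.6 in control ewe 201 against 18.2 to 18.6. MIR154B was high in control ewe 98, at 43.9 against 20.4 to 22.1, and in prenatal T ewe 233, at 28.0 against 19.6 to 20.4. LOC105606646 had 0.146 reads per cluster miRNA read in the liver of ewe 98, against 0.0946 to 0.0991 in the other control livers.

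In muscle, both libraries found were that of prenatal T ewe 255. MIR485 was at 63.1 normalised reads there against 20.7 to 22.5 in the other prenatal T muscles, which is 24 reads against 22 to 45. MIR3958 was at 26.3 against 13.3 to 15.2.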

How the results depend on the processing

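Most of the values counted kept their result: 366 for single members and 135 for whole comparisons. For single members and LOC105606646 this means the same direction and side of the threshold. For the cluster as a whole only the number of called members was compared, and a moderate change counted as kept. Single members were counted only in comparisons where they had the smallest p-values or the largest called differences. Changes outside that count are given above. In liver, MIR380, MIR154B and MIR411A changed sign with a control ewe left out. Between tissues, MIR381 and MIR154B changed sign with some scalings, and MIR154B gained a call in some settings. The exceptions among the counted values follow, with some changed numbers of called members, and the cause was not tested. LOC105606646 in liver, prenatal T against control, turned to -0.17 with scaling to the reads of all 4 classes, to -0.087 without prenatal T ewe 255 and to -0.01 without control ewe 201, and ran from -0.087 to 0.23 with each library left out. Between tissues in prenatal T ewes, its log2 difference stayed at 1.14 without a filter but lost its call (adjusted p = 0.132), as it did with edgeR (log2 difference 0.96). It ran from 0.83 to 1.30 with each ewe left out. With scaling to the reads of all 4 classes, 20 members were called between tissues of prenatal T ewes and 21 in control ewes. The deposited values and scaling to miRNA reads each gave 17 and 20, beside 12 and 16 with the joint scaling. With ewes left out the calls in either direction ran from 14 to 17 in control and 10 to 12 in prenatal T ewes. With ewe as a block 16 and 12 members were called between tissues and 0 for the difference of effects, and the block changed no other call. In muscle the whole cluster had at most 596 reads in a library.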
